A study of Mus musculus with 4 samples.

Results

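The genes of the MHC class II pathway were described in the cerebral cortex of 12-month-old mice. The list held 7 genes, namely H2-Aa, H2-Ab1, H2-Eb1, Cd74, H2-DMa, H2-DMb1 and Ciita, and they were looked up by gene symbol in a table of 37539 transcripts, which were summed into 18387 genes. The symbols of 4 of them were spelled alike in the table, and those of 2 more, Cd74 and H2-Aa, differed in their capitals only, so that 6 members had a row. Ciita was not analysed here, since 0 rows carried its symbol or matched its transcript identifiers. Cortical RNA was sequenced from 2 APPswe/PS1ΔE9 males (APP) and 2 wild type males (WT), all 12 months old and labelled C57BL/6. The study's methods name the WT strain as C57BL/6J and trace the APP line to B6.Cg-Tg (APPswe/PS1ΔE9) 85Dbo/Mmjax. The APP animals carried the APPswe and PS1ΔE9 transgenes, which are driven by the promoter of the prion protein gene Prnp, so that the transgenes are expressed broadly in the brain. Library totals were 28525117 counts (APP-3), 31392983 (APP-4), 43881196 (WT-1) and 35623228 (WT-2), where each library is named by its genotype and the number in its column. The study's methods give 2 mice of each genotype, so the p-values measure the spread between libraries of separate animals, the technical part of it included.

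MHC class II molecules present peptides from endocytosed proteins to CD4+ T cells. An alpha and a beta chain (in C57BL/6 mice H2-Aa and H2-Ab1) form the peptide-binding groove, the invariant chain Cd74 blocks that groove until the complex reaches an acidic compartment, cathepsins cut the invariant chain down to a fragment, and the DM heterodimer of H2-DMa and H2-DMb1 exchanges this fragment for peptide. Ciita is the coactivator that switches the genes on, constitutively in dendritic cells and B cells and after interferon gamma in macrophages and microglia. In healthy brain parenchyma class II is scarce, and it is better known from border macrophages, dendritic cells and activated microglia near amyloid plaques. The beta chain H2-Eb1 is transcribed in C57BL/6 mice but lacks its partner at the cell surface, because this strain carries a defective gene for the alpha chain of that pair.

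The libraries stood apart in genes that are not of the cortex. Avp, a hypothalamic peptide gene, had 18 and 102 counts in the APP libraries against 2 and 0 in the WT libraries, and the hypothalamic factor Sim1 had 29 and 34 against 2 and 0. Oxt, another hypothalamic peptide gene, had 12 and 22 counts in APP and 0 and 1 in WT. Drd2, a dopamine receptor gene of the striatum, was low in APP-3 with 25 counts, while APP-4 had 194, WT-1 129 and WT-2 153. Its log2 fold change of -0.01 became 0.80 when APP-3 was left out and -2.06 when APP-4 was. Oxt and Drd2 were singled out after their values were seen. All 7 cortical marker genes looked up were present in every library, with Camk2a, the neuronal kinase, at 672 ± 30.8 CPM in APP beside 715 ± 52.3 in WT (SD, n = 2; CPM stands for counts scaled to the library total after TMM). The neighbouring tissue in each dissection was not measured, and its part in the results below was not tested.

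Of the 6 members with a row, 0 passed both cut-offs, an FDR under 0.05 and at least a 1.5-fold difference, between APP and WT by edgeR's quasi-likelihood test, where 0.881% of all 18387 genes did, 0.843% being higher in APP and 0.0381% lower. At an unadjusted p under 0.05 the number of members was also 0, against 12.1% of all genes. DESeq2, edgeR's exact test and its likelihood ratio test called 0 members too, with 0 at an unadjusted p under 0.05 in each, while calling 1.1%, 1.93% and 2.12% of all genes. Each member had a single transcript row, and with transcripts in place of genes 0 of the 6 were called by the quasi-likelihood test and 1 had an unadjusted p under 0.05, against 0.807% of 37539 transcripts called. The groups were apart for 1 member in each direction, H2-DMb1 being higher and H2-Aa lower in both APP libraries. Among all genes 21.3% had every APP library above every WT library and 21.4% had every APP library below. Without APP-3 or APP-4 the calls over all genes came to 602 and 475 in place of 162, and the members' count was 0 in each. The median log2 fold change of the 6 was -0.10, beside 0.00 over all genes, and it was 0.03 over the 5 members that had 10 counts or more in all libraries. With 2 libraries a group, the exact permutation p (2-sided) is never smaller than 0.333, and the p-values given here come from edgeR's pooling of spread over all genes.

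**Figure D1:**
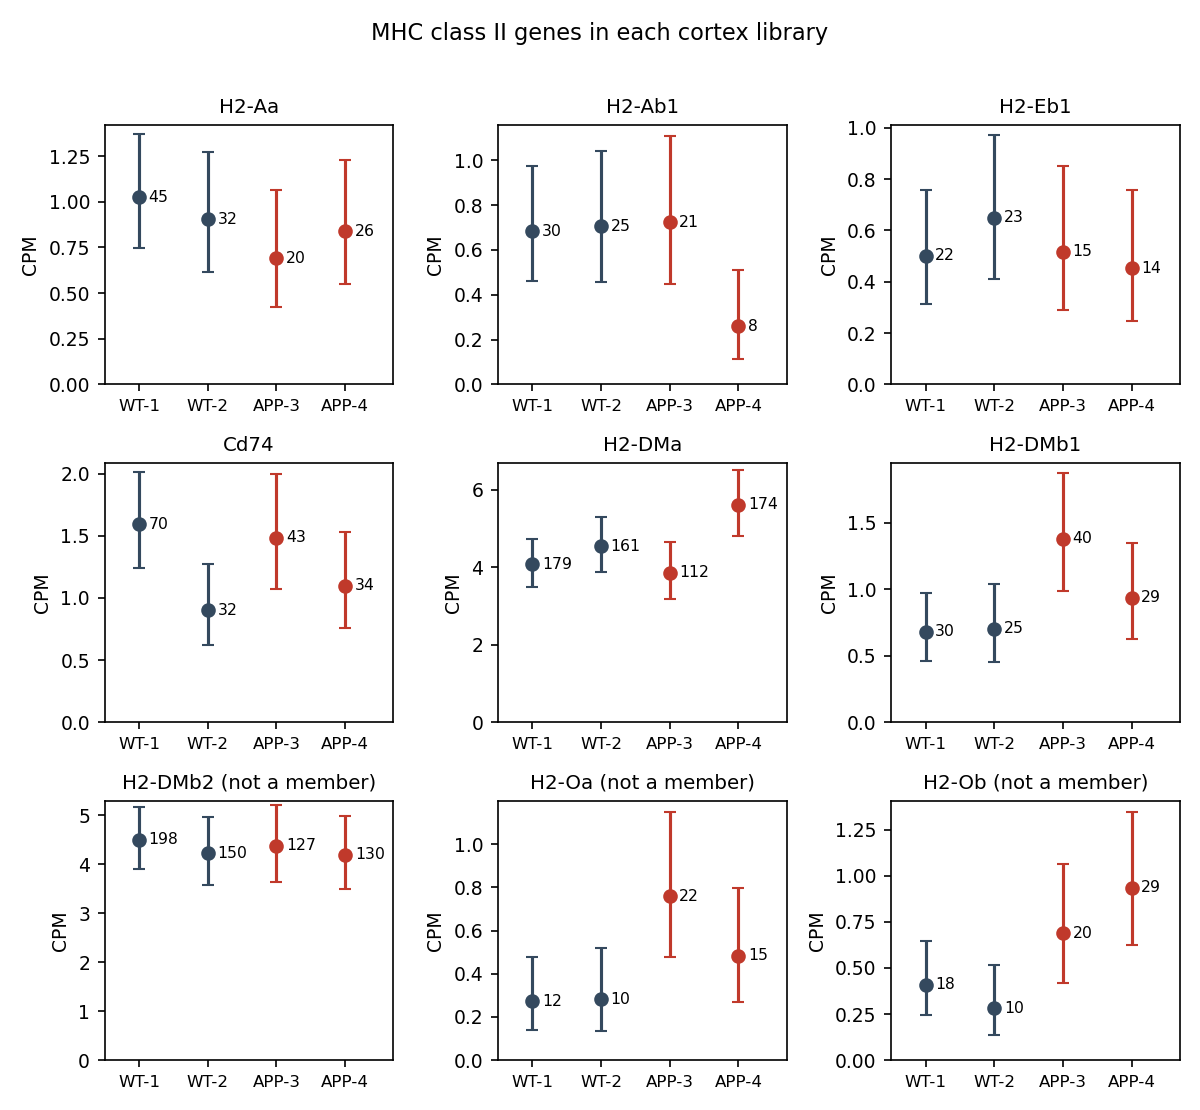
CPM of the 6 MHC class II members and 3 related genes in each library, WT in dark blue and APP in red. Points are single libraries with their number of counts beside them, and lines are exact 95% Poisson intervals, which cover counting error only. APP-4 has 8 counts of H2-Ab1, the lowest of any member.

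All 6 members were expressed at low levels. Per kilobase of transcript, H2-DMa was the highest in the mean over libraries, at 2.73 CPM per kb, with 2.86 ± 0.749 in APP (SD, n = 2). Its lowest library, at 2.33, lay above the highest of any other member, at 1.30 for Cd74. Cd74 followed with 1.02 ± 0.399 CPM per kb in WT and H2-Aa with 0.854 ± 0.0760, and the libraries of these neighbours overlapped. H2-Ab1 had 0.573 ± 0.0132, H2-DMb1 0.494 ± 0.0114 and H2-Eb1 0.491 ± 0.0895 CPM per kb in WT, and over all 4 libraries the values of these 3 overlapped. In the ranking of all genes by mean CPM per kb, H2-DMa stood at the 39.7th percentile, Cd74 at the 25.9th and H2-Eb1, the lowest, at the 15.7th. DM exceeded the 3 chains together in every library, by a ratio per kilobase of 1.55 in WT-1 and 1.67 in WT-2, 2.01 in APP-3 and 3.02 in APP-4.

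H2-Aa, the alpha chain of the groove, had 20 and 26 counts in the APP libraries against 45 and 32 in the WT libraries. On library size this was 0.689 and 0.839 CPM in APP and 1.02 and 0.903 in WT, so that both APP libraries lay below both WT libraries. The log2 fold change was -0.33 (standard error 0.33, 95% interval -1.09 to 0.42, adjusted p = 0.770, edgeR's quasi-likelihood test as for all adjusted p-values here). Leaving out APP-3 made it -0.20, and leaving out APP-4 made it -0.48. Its partner H2-Ab1, the beta chain, had 21 counts in APP-3 but 8 in APP-4, against 30 and 25 in WT. APP-3 thus stood at 0.724 CPM, above WT-1 at 0.683 and WT-2 at 0.705, and APP-4 alone was low at 0.258. The log2 fold change of -0.51 (95% interval -1.68 to 0.66, adjusted p = 0.776) rested on that library, being 0.06 without APP-4 and -1.41 without APP-3. The ratio of H2-Aa to H2-Ab1 per kilobase was 1.61 and 1.38 in the WT libraries, but 1.02 in APP-3 and 3.49 in APP-4. H2-Eb1, the beta chain without a surface partner in this strain, had 15 and 14 counts in APP and 22 and 23 in WT. Its groups overlapped at 0.517 and 0.452 CPM in APP against 0.501 and 0.649 in WT, and its log2 fold change was -0.24 (95% interval -1.23 to 0.75, adjusted p = 0.892). Leaving out WT-2 gave -0.04 and leaving out WT-1 gave -0.42.

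Reads of H2-Ab1 and H2-Eb1 may in part be exchanged. Of the 100-base windows of the H2-Ab1 transcript, 5.48% matched a transcript of H2-Eb1 with at most 7 mismatches, the number the authors' aligner allowed, and 10.5% of those of H2-Eb1 matched H2-Ab1 or H2-Eb2. For H2-Aa, Cd74 and H2-DMa the number of such windows was 0.

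Cd74, the invariant chain, differed between the WT libraries. It had 70 counts in WT-1 and 32 in WT-2, or 1.59 and 0.903 CPM, a ratio of 1.76 within the group. The APP libraries, with 43 and 34 counts or 1.48 and 1.10 CPM, both fell between them. The log2 fold change was 0.03 (standard error 0.35, 95% interval -0.76 to 0.82, adjusted p = 0.989). Its sign changed with the libraries used, from -0.30 without WT-2 and -0.20 without APP-3 to 0.23 without APP-4 and 0.51 without WT-1. The interval holds folds beyond 1.5 in both directions, so at this depth neither a rise nor a decrease of that size could be told from no difference.

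The DM genes, which load peptide, had values that differed between the subunits. H2-DMa, the alpha subunit and the deepest-counted member, had 112 and 174 counts in APP and 179 and 161 in WT. In CPM, APP-3 was the lowest library at 3.86 and APP-4 the highest at 5.62, with the WT libraries at 4.07 and 4.54 between them. The log2 fold change was 0.14 (standard error 0.20, 95% interval -0.32 to 0.60, adjusted p = 0.855), and it was -0.15 without APP-4 and 0.39 without APP-3. H2-DMb1, one of 2 genes for the beta subunit, had 40 and 29 counts in APP and 30 and 25 in WT. Both APP libraries, at 1.38 and 0.936 CPM, lay above both WT libraries at 0.683 and 0.705, with a log2 fold change of 0.73 (standard error 0.35, 95% interval -0.05 to 1.52, adjusted p = 0.449). This was the largest log2 fold change among the 6 members, and it did not pass the test. Leaving out APP-3 gave 0.43, and leaving out APP-4 gave 0.99. The ratio of H2-DMa to H2-DMb1 per kilobase was 5.05 in WT-1, 5.45 in WT-2, 5.08 in APP-4 and 2.37 in APP-3.

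H2-DMb1 is a close copy of H2-DMb2, the other beta subunit gene, and 59.5% of its 100-base windows matched H2-DMb2 with at most 7 mismatches. Of the windows of H2-DMb2, 64.1% matched another gene, 776 of them H2-DMb1, and the matches fell in 833 genes in all, so its counts and any sum with them may hold reads of other genes. H2-DMb2 had 127 and 130 counts in APP and 198 and 150 in WT, with 4.38 and 4.20 CPM against 4.51 and 4.23 and a log2 fold change of -0.03 (adjusted p = 0.972), which was 0.02 without WT-1. With the counts of both genes summed, an alternative chosen after seeing the data, the libraries held 5.76 and 5.13 CPM in APP and 5.19 and 4.94 in WT, which overlap. For the sum the log2 difference was 0.10 (SE 0.15, adjusted p = 0.860). H2-DMb2 holds most of these counts, so the sum says little about H2-DMb1 itself. How reads were divided between the copies was not tested, and the value of H2-DMb1 is uncertain by it. H2-Oa and H2-Ob, which form the DO heterodimer that inhibits DM and is best known from B cells, were the class II genes with the largest log2 fold changes. H2-Oa had 22 and 15 counts in APP and 12 and 10 in WT, and its log2 fold change was 1.15 (standard error 0.49, 95% interval 0.03 to 2.29, adjusted p = 0.393). H2-Ob had 20 and 29 counts in APP and 18 and 10 in WT, and its log2 fold change was 1.21 (standard error 0.44, 95% interval 0.21 to 2.23, adjusted p = 0.305). For both genes the APP libraries were above the WT libraries, but 0 of these 3 class II genes outside the list passed the quasi-likelihood test, DESeq2 or edgeR's other tests, and 2 had an unadjusted p under 0.05. Without APP-3 the log2 fold change of H2-Oa was 0.80. H2-Ea-ps, the defective alpha chain gene, and H2-Eb2 were not analysed here.

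**Figure D2:**
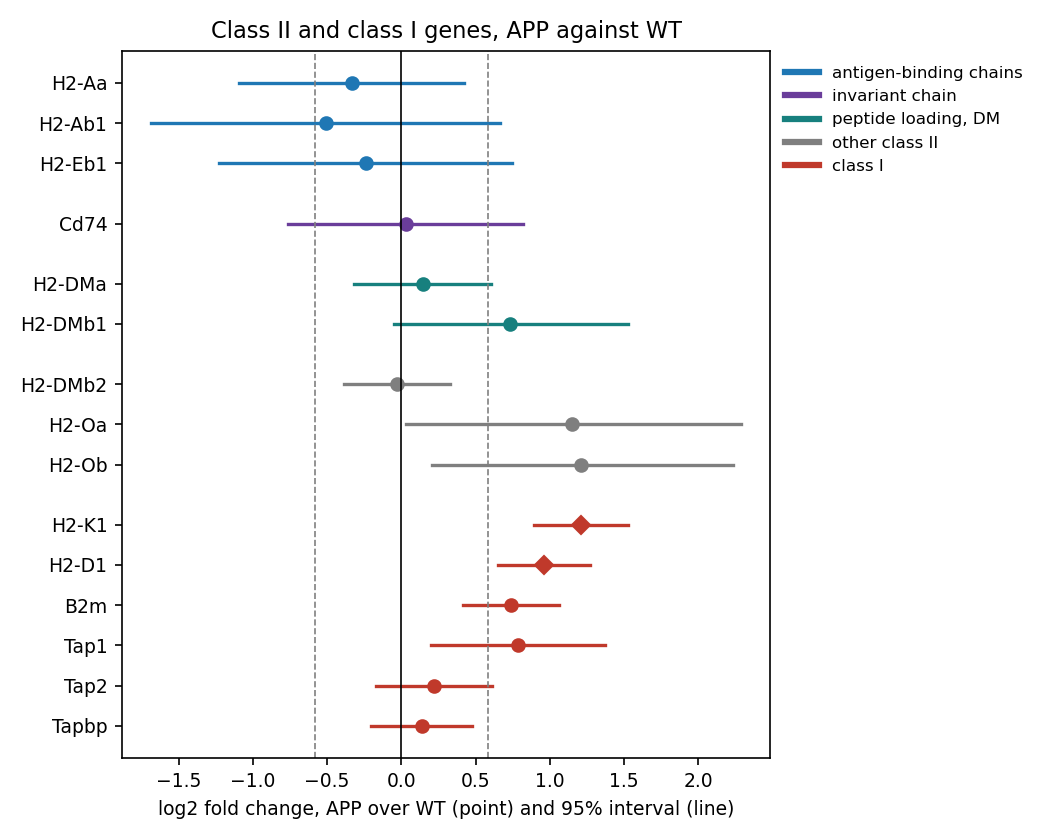
Log2 fold change of APP over WT for class II genes and for 6 genes of the class I pathway, with 95% intervals from edgeR's quasi-likelihood fit; dashed lines mark a fold of 1.5 in either direction and diamonds the genes that passed both cut-offs. Intervals of the 6 class II members all include 0, and the diamonds are H2-K1 and H2-D1.

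The class II promoters are known for a shared arrangement of an X box, bound by the RFX complex and CREB1, and a Y box, bound by NF-Y, on which Ciita docks without touching DNA itself. Promoter windows from 250 bases before to 50 bases after the transcription start (RefSeq, GRCm38.p6) were at hand for 4 of the members. They were searched on both strands for GNAAC, a stretch within the X box, followed by 20 to 30 bases and then TGATTGG, the centre of the Y box. The spacing was set after the windows had been looked at. The combination was found in 3 members, H2-Aa, H2-Eb1 and H2-DMb1, and in H2-Oa, H2-Ob and H2-Eb2, and in 0.323% of all 32851 windows of the same length, whereas TGATTGG alone was found in 7.82%. The gap between both parts was 23 to 26 bases in these genes, on the strand of the gene in each. GNAAC alone was found in 84.8% of windows. The 2 windows of H2-DMa (chr17:34122582-34122881 and chr17:34125268-34125567, plus strand) held neither the combination nor TGATTGG. This gene runs from 34119541 to 34139101, and whether either window is the start of the counted transcript was not checked. The promoter of that transcript may thus not have been searched. The windows of H2-Aa (chr17:34287774-34288073, minus strand), of H2-Eb1 (chr17:34305617-34305916, plus strand), of H2-DMb1 (chr17:34152941-34153240, plus strand) and of H2-DMb2 (chr17:34144999-34145298, plus strand) are printed with the matched letters in capitals, the last pair because these copies had unlike fold changes. The window of H2-DMb2 had TGATTGG without a preceding match to GNAAC at that distance.
H2-Aa: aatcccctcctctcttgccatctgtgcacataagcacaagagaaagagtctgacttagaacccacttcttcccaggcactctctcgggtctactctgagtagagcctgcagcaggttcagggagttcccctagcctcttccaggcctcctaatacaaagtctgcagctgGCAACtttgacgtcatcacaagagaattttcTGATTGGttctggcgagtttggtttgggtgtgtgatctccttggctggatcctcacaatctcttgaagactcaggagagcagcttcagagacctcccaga
H2-Eb1: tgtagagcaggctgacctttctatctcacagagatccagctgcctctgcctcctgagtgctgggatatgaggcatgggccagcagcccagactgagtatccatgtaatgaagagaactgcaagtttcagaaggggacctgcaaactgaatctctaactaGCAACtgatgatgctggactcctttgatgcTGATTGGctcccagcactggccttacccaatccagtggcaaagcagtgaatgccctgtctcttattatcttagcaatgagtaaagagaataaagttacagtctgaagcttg
H2-DMb1: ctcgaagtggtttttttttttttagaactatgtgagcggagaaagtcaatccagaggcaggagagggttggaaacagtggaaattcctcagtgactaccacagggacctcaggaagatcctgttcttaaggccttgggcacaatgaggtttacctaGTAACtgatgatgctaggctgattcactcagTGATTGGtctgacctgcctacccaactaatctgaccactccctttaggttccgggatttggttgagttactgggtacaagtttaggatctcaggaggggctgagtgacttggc
H2-DMb2: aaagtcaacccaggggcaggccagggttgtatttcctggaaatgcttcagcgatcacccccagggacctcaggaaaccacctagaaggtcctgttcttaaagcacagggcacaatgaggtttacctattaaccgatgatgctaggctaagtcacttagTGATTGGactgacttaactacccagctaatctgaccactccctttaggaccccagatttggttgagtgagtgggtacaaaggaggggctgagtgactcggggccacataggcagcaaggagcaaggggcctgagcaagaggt
The same arrangement in the DO genes, which had the largest log2 fold changes, is shown by shorter stretches of H2-Oa (chr17:34092293-34092350, plus strand) and H2-Ob (chr17:34238808-34238862, plus strand).
H2-Oa: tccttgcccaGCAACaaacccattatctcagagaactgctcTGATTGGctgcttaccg
H2-Ob: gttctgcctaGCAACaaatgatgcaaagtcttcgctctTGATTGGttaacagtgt
Genes that share this arrangement thus had log2 fold changes from -0.33 for H2-Aa to 1.21 for H2-Ob. A match in these windows is a description of letters, and binding was not measured.

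Of the 7 factors looked up that are known to occupy the X and Y boxes, namely Rfx5, Rfxap, Rfxank, Nfya, Nfyb, Nfyc and Creb1, 0 were called by the quasi-likelihood test, DESeq2 or edgeR's other tests and 0 had an unadjusted p under 0.05 in the first, and their log2 fold changes ran from -0.16 to 0.06. The most abundant per kilobase were Nfyb at 41.9 ± 6.01 CPM in APP and 41.8 ± 0.304 in WT, Nfyc at 19.9 ± 1.18 and 20.6 ± 1.69, and Creb1 at 120 ± 4.38 and 120 ± 0.00856 (SD, n = 2). Leaving out single libraries gave both signs for these 3, the widest range being -0.15 to 0.15 for Nfyb. Of the 8 genes of the interferon gamma route with a row, 0 passed both cut-offs and 3 had an unadjusted p under 0.05. The receptor subunit Ifngr2 had 27.3 ± 0.718 CPM in APP and 27.8 ± 0.318 in WT, and the kinases Jak1 and Jak2 had log2 fold changes of -0.18 and -0.08 (adjusted p = 0.347 and 0.755). EdgeR's exact and likelihood ratio tests called 1 gene of this list, as did the quasi-likelihood test without APP-3 or without APP-4. Ifng, the gene of the cytokine itself, was not analysed here.

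H2-DMa, H2-DMb1, H2-Ab1, H2-Aa and H2-Eb1 lie within 224 kb of chromosome 17 (GRCm38, 34092340 to 34316674, from the start of H2-Oa to the end of H2-Eb1 in GENCODE M21), and Cd74 is on another chromosome. In this stretch 13 genes were counted, of which 1 passed both cut-offs, higher in APP, and 5 had an unadjusted p under 0.05. Among all genes 0.843% were called higher in APP and 12.1% had an unadjusted p under 0.05 by the quasi-likelihood test. The 5 were H2-Oa, Psmb9, Tap1, Psmb8 and H2-Ob, all higher in APP and none of them a member. The called gene was Psmb8, which encodes a subunit of the immunoproteasome that cuts peptides for class I, with 89 and 107 counts in APP and 53 and 44 in WT. Psmb8 was higher by 1.41 on this scale (adjusted p = 0.0204), and the call was lost without WT-1 or without WT-2, at 1.39 and 1.44. Psmb9, its neighbour and another immunoproteasome subunit, had 16 and 34 counts in APP and 15 and 13 in WT, and a log2 difference of 1.22 (adjusted p = 0.346) that was 0.64 without APP-4 and 1.63 without APP-3, where it was called. The 3 chain genes H2-Ab1, H2-Aa and H2-Eb1 lay side by side at the far end of the stretch and had log2 fold changes below 0, while Tap1 and Tap2, the peptide transporter genes between them and the DM genes, had 0.79 and 0.22 (adjusted p = 0.246 and 0.681). Genes of this stretch were named for their position, after their values were seen. The difference between the ends of the stretch was not tested.

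**Figure D3:**
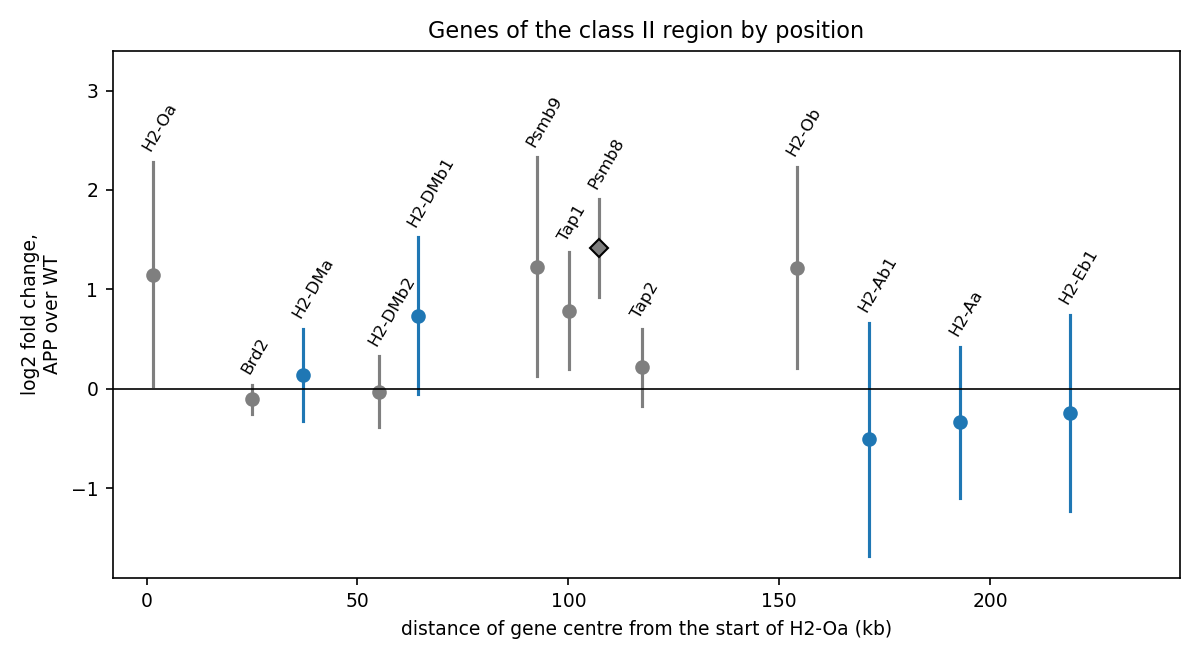
Log2 fold change of APP over WT, with 95% intervals, for the 13 genes counted in the class II region, placed by the distance of each gene's centre from the start of H2-Oa in kb. Members of the class II list are blue, other genes grey, and the diamond is Psmb8 at 1.41; H2-Ab1, H2-Aa and H2-Eb1 lie at -0.51, -0.33 and -0.24.

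Of 9 genes that process antigen or the invariant chain, 2 rose and 0 fell. Ctss, the cathepsin known for cutting the last part of the invariant chain, had 102 and 137 CPM in APP and 52.9 and 57.8 in WT and rose, its log2 difference being 1.11 (adjusted p = 0.00618). Ctsd, an aspartic protease of lysosomes, rose by 1.31 (adjusted p = 5.59e-05), from 160 ± 1.72 CPM in WT to 396 ± 25.9 in APP (SD, n = 2). Ctsb, a further cathepsin, had a log2 fold change of 0.30 (adjusted p = 0.0809). Ctsl and Lgmn, named after their values were seen, had 0.33 and 0.32 (adjusted p = 0.0646 and 0.0661). All 9 log2 fold changes were above 0. In 5 genes both APP libraries lay above both WT libraries, against 21.3% of all genes, and in 4 the groups overlapped. By the quasi-likelihood test 5 had an unadjusted p under 0.05, against 12.1% of all genes. The list's median was 0.30, beside 0.00 over all genes. Of 5 co-stimulatory genes 1 rose, Cd86, a ligand of the T cell receptor CD28, with 4.03 and 5.07 CPM in APP and 1.37 and 2.12 in WT (log2 fold change 1.40, adjusted p = 0.0366). This call was lost without WT-1, at 1.10. Cd40 and Cd274, the most abundant per kilobase with Cd86, had log2 fold changes of -0.11 and 0.29 (adjusted p = 0.834 and 0.565), and that of Cd40 was 0.04 without APP-3. The list summed to 21.7 and 25.4 CPM in APP and 20.4 and 18.7 in WT, and Pdcd1lg2 was not analysed here.

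The class I genes, whose products present peptides from inside the cell, had a median log2 fold change of 0.76 over 6 genes, of which 2 rose and 0 fell. The heavy chain H2-K1 had 14.3 and 17.0 CPM in APP and 7.30 and 6.21 in WT and rose, its log2 difference being 1.21 (adjusted p = 0.00649). The heavy chain H2-D1 rose by 0.96 (adjusted p = 0.0157), and the shared light chain B2m had 0.74 (adjusted p = 0.0540 by the quasi-likelihood test), which DESeq2 and edgeR's other tests called, and which was called at 0.97 without APP-3 and at 0.73 without WT-1, but was 0.46 and not called without APP-4. Up to 72.6% of the 100-base windows of an H2-D1 transcript and 52.7% of an H2-K1 transcript matched another gene, so their reads may be divided among class I copies. Summed over H2-Aa, H2-Ab1 and H2-Eb1, the class II chains had 1.93 and 1.55 CPM in APP and 2.21 and 2.26 in WT. Summed over H2-K1 and H2-D1, the class I heavy chains had 33.8 and 40.9 CPM in APP and 19.6 and 16.2 in WT. Per kilobase, the class II chains thus equalled 15.8% and 19.7% of the class I heavy chains in WT-1 and WT-2, but to 7.95% and 5.50% in APP-3 and APP-4. This ratio carries the class I differences already given, and whether the class II genes differ from the class I genes in their response was not tested.

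**Figure D4:**
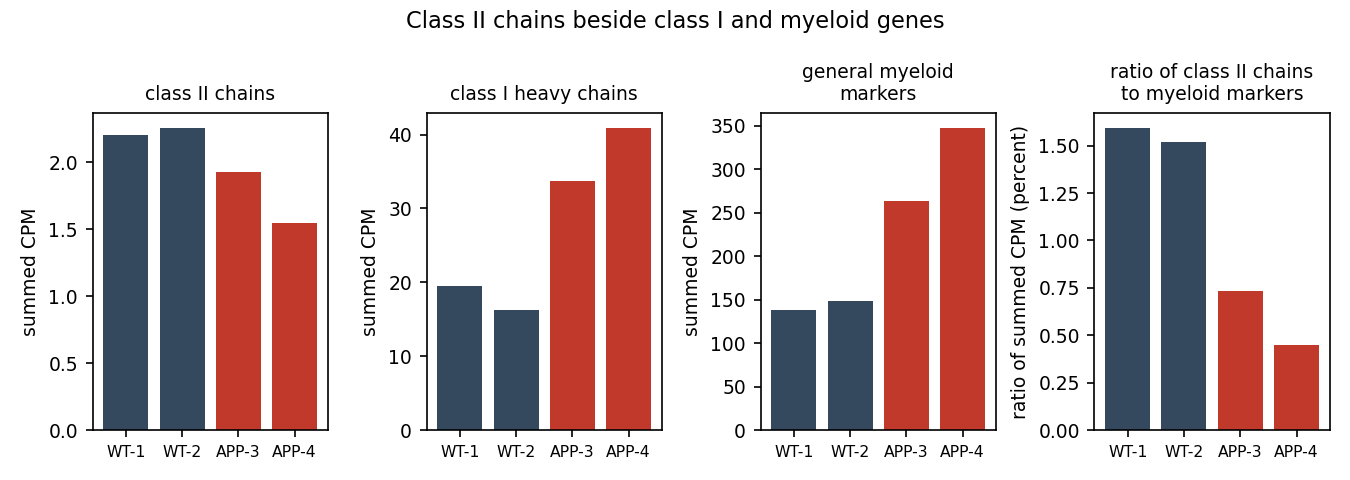
Summed CPM in each library of the 3 class II chains, of the 2 class I heavy chains and of 10 general myeloid markers, and the ratio of the class II chains to the myeloid sum in percent, WT in dark blue and APP in red; each bar is 1 library. The chains run from 1.55 to 2.26 CPM, and the myeloid sum from 139 to 347 CPM, so that the ratio runs from 0.447% in APP-4 to 1.59% in WT-1.

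Markers of cells that could carry class II were looked at as whole lists. In bulk tissue, fewer cells of a type and less RNA per cell cannot be told apart. All 10 general myeloid markers had both APP libraries above both WT libraries, and 7 of them rose. The median of the list was 1.05 on the log2 scale. Their summed level was 264 and 347 CPM in APP and 139 and 149 CPM in WT, Ctss being the most abundant per kilobase, and the largest log2 fold change was that of Tyrobp, an adaptor of myeloid receptors, at 2.08 (SE 0.11, adjusted p = 5.38e-05). Ptprc and Cd68 rose by 1.37 and 1.97, C1qa and C1qc by 1.08 and 0.96, and Laptm5 by 0.95 on the log2 scale. The 3 class II chains are not in this list, and their summed CPM equalled 1.59% and 1.52% of it in WT-1 and WT-2 and 0.732% and 0.447% in APP-3 and APP-4. This ratio follows the myeloid sum, which differed more between the groups than the chains did. Of 12 homeostatic microglial markers 7 rose and 0 fell, with a median of 0.72 and a sum of 419 and 470 CPM in APP and 257 and 258 in WT. Gpr34 and Cx3cr1 rose by 1.10 and 0.72. Csf1r, the receptor microglia depend on, rose by 0.69 (adjusted p = 0.0176), a call lost without APP-4 at 0.53. Siglech, P2ry13 and Selplg also rose, by 0.69, 0.80 and 0.83. The call of Siglech was lost without WT-2 at 0.60, that of P2ry13 without WT-1 at 0.66, and that of Selplg without WT-1 at 0.90 and without WT-2 at 0.78. P2ry12 had 0.52 (adjusted p = 0.0543) and was called without APP-3, at 0.66, but not without APP-4, at 0.36.

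Border macrophages are known to carry much of the class II of a healthy brain. Of their 9 markers 0 were called by the quasi-likelihood test and 0 had an unadjusted p under 0.05, and the median was -0.08 on the log2 scale, with values from -0.88 to 0.35. Cd209f, at the lower end, had 6 and 5 counts in APP and 15 and 12 in WT, and Cd163, at the upper end, had 63 and 24 in APP and 51 and 40 in WT, both named after their values were seen. DESeq2 and edgeR's other tests called 0 as well. Their summed level was 21.4 and 20.3 CPM in APP and 22.7 and 20.6 in WT, and the most abundant per kilobase, the mannose receptor Mrc1, had 6.53 ± 0.0280 CPM in APP beside 6.79 ± 0.344 in WT (SD, n = 2). F13a1 and Stab1 had log2 fold changes of 0.01 and -0.08, which were -0.23 without APP-4 and 0.08 without WT-1. Of 7 dendritic cell markers with a row, 2 rose and 0 fell. These were Itgax, an integrin chain that plaque-associated microglia also express, with 214 and 219 counts in APP and 16 and 13 in WT (log2 fold change 4.29, adjusted p = 3.24e-05), and Siglech, which the microglial list holds too and whose call was lost without WT-2 at 0.60. Flt3 and Zbtb46, which are more particular to dendritic cells, had log2 fold changes of -0.23 and -0.30 (adjusted p = 0.594 and 0.247), and both were lower in both APP libraries. In all, 4 genes of the list had both APP libraries below both WT libraries. Cd209a and Batf3 were among them at -0.79 and -0.93 (adjusted p = 0.563 and 0.613), named after their values were seen. The list's median was -0.23 and its sum 47.2 and 47.8 CPM in APP and 39.8 and 38.9 in WT. This sum includes Itgax and Siglech, the 2 genes with both APP libraries above both WT libraries. Siglech alone had 15.9 and 16.0 CPM in APP and 10.6 and 9.20 in WT. Clec9a and Ccr7 were not analysed here.

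The lymphocyte side was at low counts. Of 3 B cell markers with a row 0 were called by the quasi-likelihood test, and their sum was 3.38 and 4.58 CPM in APP and 3.89 and 4.20 in WT, with Cd22 the most abundant per kilobase. Ms4a1 had 34 and 38 counts in APP and 65 and 48 in WT, and Cd79a had 13 and 14 against 16 and 20. Cd79b, Pax5, Blk and Fcmr were not analysed here, so the defining B cell genes are covered in part. Cd22 had a log2 fold change of 0.11, which was -0.29 without APP-4, and Cd79a one of -0.03, which was 0.31 without WT-2. Of 7 genes on the T cell side 0 were called, with Trbc1, Trbc2 and Lag3 at log2 fold changes of 0.09, -0.12 and 0.53 (adjusted p = 0.933, 0.894 and 0.519). Lck, a kinase of T cell receptor signalling, had 22 and 31 counts in APP and 18 and 17 in WT. Its log2 fold change was 0.99 (adjusted p = 0.365), with both APP libraries above both WT libraries and an unadjusted p under 0.05, and it was named after its values were seen. Trbc1 was at -0.04 without APP-3, and Trbc2 at 0.05 without APP-4. Lag3, a receptor for class II, counted 62 in APP-3, 120 in APP-4 and 82 in either WT library, and its log2 fold change was 0.90, with a call, without APP-3 but 0.04 without APP-4. Cd4, the class II co-receptor, was low in APP-3 with 21 counts, while APP-4 had 114, WT-1 72 and WT-2 78. Its log2 fold change of 0.22 became -1.39 once APP-4 was left out and 0.95, with a call, once APP-3 was. APP-3 was also the lowest library in Drd2. Cd4 was singled out after its values were seen. Cd3e, Cd3g, Trac and Cd2 were not analysed here. Without APP-3, 2 genes of this list were called, and without APP-4 1 was. The list summed to 9.24 and 14.7 CPM in APP and 9.44 and 11 in WT. Of 4 monocyte and neutrophil markers 0 were called, and their sum was 1.41 and 1.78 CPM in APP and 1.34 and 1.10 in WT, with Ccr2 at 23 and 17 counts in APP and 24 and 13 in WT. S100a8, the most abundant per kilobase, and S100a9 had at most 14 counts in a library, and Plac8, Ngp, Retnlg and Chil3 were not analysed here. The 8 endothelial markers had a median of -0.10 with 0 called, and Slco1a4, Flt1 and Ly6c1 had log2 fold changes of 0.05, -0.01 and -0.14. That of Slco1a4 was -0.01 without WT-2 and that of Flt1 0.20 without APP-4. The endothelial sum was 68.9 and 65.6 CPM in APP and 72.2 and 65.5 in WT. DESeq2 and edgeR's other tests called 0 genes of the B cell, T cell, monocyte and neutrophil, and endothelial lists. At an unadjusted p under 0.05, the quasi-likelihood test gave 0 B cell markers, 1 gene of the T cell side, 0 monocyte and neutrophil markers and 0 endothelial markers. The part of these cell types in the class II values was not tested.

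**Figure D5:**
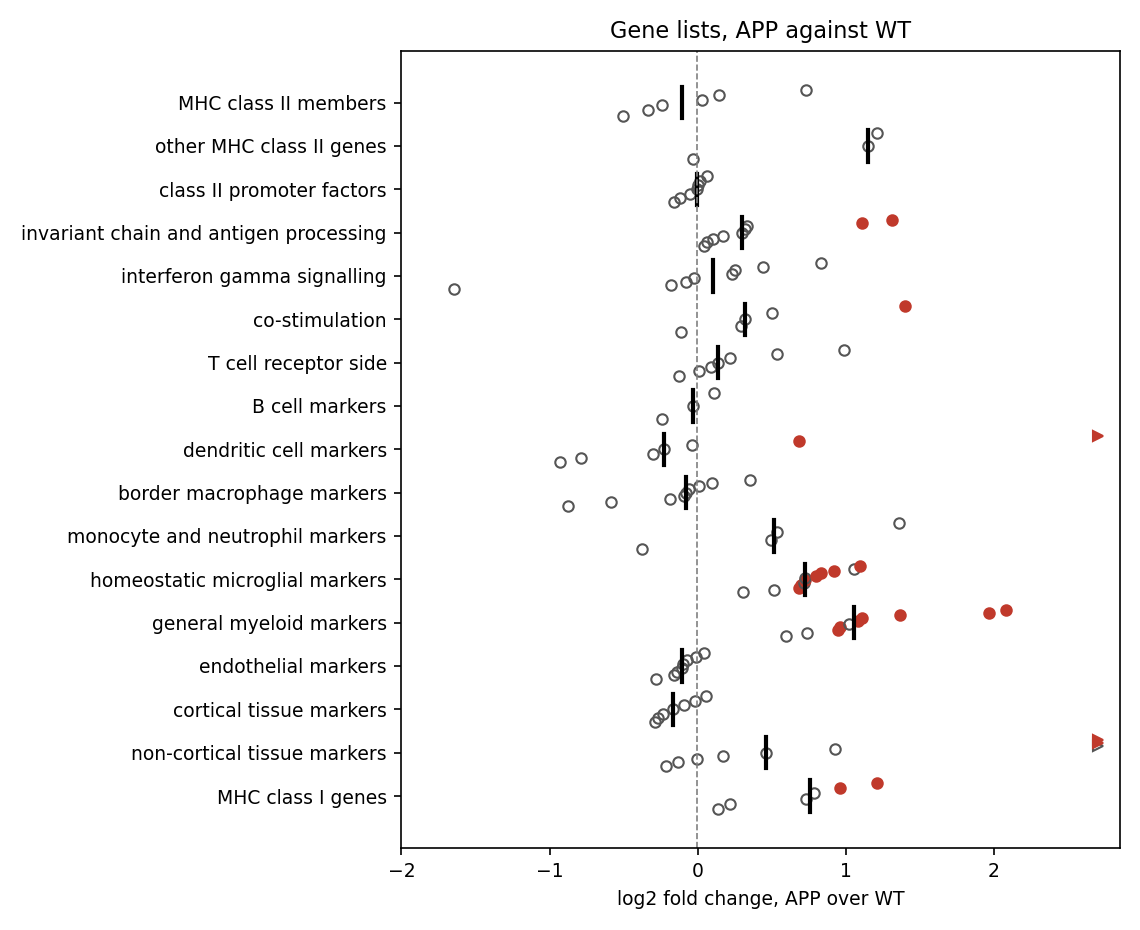
Log2 fold change of APP over WT for each gene of the lists, 1 circle a gene, filled in red where it passed both cut-offs; black bars are list medians, the dashed line is the median of all genes at 0.00, and arrowheads are genes beyond the axis. The 6 class II members have a median of -0.10 with 0 filled circles, and the general myeloid markers one of 1.05 with 7.

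For reference, App rose by 1.52 and Prnp by 1.71 on the log2 scale (adjusted p = 2.17e-05 and 1.61e-05). The transgenes carry App sequence under the Prnp promoter, so reads of both rows may come from them. Actb had 0.00, with -0.05 without WT-1. Of the cortical markers 0 of 7 were called by the quasi-likelihood test, with 3 at an unadjusted p under 0.05, and Slc17a7, Neurod6 and Camk2a had log2 fold changes of -0.29, -0.02 and -0.09, that of Neurod6 being 0.25 without APP-4. The cortical list summed to 1159 and 1168 CPM in APP and 1327 and 1253.5 in WT. Of 9 non-cortical markers with a row 2 passed both cut-offs, Avp and Sim1, with 5 without APP-3, 4 without APP-4, and 4 by either of edgeR's other tests. Drd1 and Tnnt1, which mark striatum and thalamus, had 0.17 and 0.46 (adjusted p = 0.824 and 0.736), which were -0.28 without APP-4 and -0.11 without WT-1. Tcf7l2, another gene of this list, had 75 and 119 counts in APP and 79 and 56 in WT. In CPM both APP libraries lay above both WT libraries. Its log2 fold change was 0.93 (adjusted p = 0.155), with an unadjusted p under 0.05, and it was named after its values were seen. The non-cortical list summed to 44.8 and 77.9 CPM in APP and 53.4 and 48.7 in WT, with Drd1 the most abundant per kilobase, and Folr1 was not analysed here.

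For the 5 members that had 10 counts or more in all libraries, the log2 CPM was centred on each gene's mean, and the mean of these profiles was nearly flat, from -0.07 in WT-2 to 0.07 in APP-3. The Euclidean distance of each member from this mean profile was 0.45 for H2-Aa, 0.55 for Cd74, 0.42 for H2-Eb1, 0.46 for H2-DMa and 0.69 for H2-DMb1. Among 16145 genes outside the lists, the 8 nearest were Txlna, Mageh1, Mmp15, Gm14296, Ttf1, Ogfod2, Cln8 and Golga2, at distances from 0.00768 to 0.0147. As the mean was nearly flat, these are genes that differed little between libraries, with log2 fold changes at 0.06 or 0.07. The distance that counting error alone would give the members was not computed, so whether they share a profile was not tested.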

How the data were processed

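The values were deposited as read counts per transcript, which the authors had made by mapping ribosomal-RNA-depleted, strand-specific read pairs with FANSe2, with up to 7 mismatches allowed, to mouse RNA sequences and keeping transcripts with at least 10 reads. The labels name CASAVA 1.8 and edgeR. Counts of 37539 transcripts were summed by transcript identifier into genes of GENCODE M21, which matched 98.2% of them, and the 694 without a match each stayed a separate feature, giving 18387 in all. This departs from the planned sums per deposited symbol, since 8274 rows had no symbol and 81.4% of symbols equalled GENCODE's in any case; those sums were run as an alternative chosen after seeing the data. The 4 deposited columns headed CPM, one per library, and the 4 columns of the authors' own comparison (log fold change, log CPM, p and FDR) were not used.

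Genes were compared between APP and WT with edgeR 4.0.16 (R 4.3.3, limma 3.58.1) by its quasi-likelihood test on TMM-scaled totals. The common dispersion was 0.0078, and Benjamini-Hochberg adjustment ran over all features. A prior count of 2 was set for the log2 CPM values, not for the test. A gene was called, or said to rise or fall, where its FDR was under 0.05 and its groups differed at least 1.5-fold. Alternatives were DESeq2 1.42.0, edgeR's exact and likelihood ratio tests, other scalings and filters, transcripts in place of genes, a fold of 2 and leaving out each library. Shared windows were found with blastn 2.17.0, and tables and figures were made with Python 3.11.15, pandas 2.3.3, numpy 2.4.6, scipy 1.17.1 and matplotlib 3.10.9. Named genes were the members, in each list those called and up to 3 most abundant per kilobase, and the 8 genes outside the lists nearest to the members' mean profile. The members and lists were chosen with earlier results of these data known.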

Additional observations from a re-analysis of the deposited data

How the results depend on the processing

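The number of members called by edgeR's quasi-likelihood test was 0 in each setting tried, and it was 0 by DESeq2 and edgeR's exact and likelihood ratio tests, with at most 1 member at an unadjusted p under 0.05. The number of genes called in place of 162 was 354 with the exact test, 389 with the likelihood ratio test, 303 with transcripts in place of genes, 91 at a fold of at least 2, and 135 to 602 when 1 library was left out. Over the lists the calls numbered 23, and 14 at a fold of at least 2 and 21 to 36 when 1 library was left out. The genes whose groups did not overlap numbered 5996 to 7139 higher in APP and 5939 to 7085 lower when 1 library was left out. The members' median log2 fold change was 0.0259 where every library had to hold 10 counts of a gene, and -0.203 to -0.0373 when 1 library was left out. In settings that kept all libraries, 550 log2 fold changes kept direction and call, 4 of 1 gene gained a call and 1 changed sign, the log2 fold change of Creb1 with library totals without TMM, at 0.00350742.

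When 1 library was left out, 265 log2 fold changes kept direction and call, 7 gained a call, 8 lost it and 36 changed sign, in 24 genes. The ranges were -0.30 to 0.51 for Cd74, -1.41 to 0.0643 for H2-Ab1, -0.15 to 0.39 for H2-DMa, -0.0681 to 0.0187 for H2-DMb2, -0.0541 to 0.0647 for Actb, -0.29 to 0.43 for Cd22, -1.39 to 0.95 for Cd4, -0.281 to 0.0416 for Cd40, -0.32 to 0.31 for Cd79a and -0.0396 to 0.0374 for Creb1. They were -0.28 to 0.51 for Drd1, -2.06 to 0.80 for Drd2, -0.23 to 0.21 for F13a1, -0.26 to 0.20 for Flt1, -0.0520 to 0.00412 for Ifngr2, -0.35 to 0.25 for Neurod6, -0.15 to 0.15 for Nfyb and -0.128 to 0.0361 for Nfyc. For S100a8 they were -0.92 to 1.29, for Slco1a4 -0.0127 to 0.113, for Stab1 -0.217 to 0.0850, for Tnnt1 -0.11 to 1.33, for Trbc1 -0.0450 to 0.225 and for Trbc2 -0.311 to 0.0488. The cause was not tested. The lone library of a group is then assumed to vary like those of the other group. No paired analysis was possible because the labels pair no samples. Members with low counts, such as H2-Ab1 with 8 in APP-4, have wide intervals.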
